A study of Mus musculus with 6 samples.

Results

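Serine and glycine handling was examined through 10 genes of the deposited mouse gene table (45777 genes), chosen by symbol: Phgdh, Psat1, Psph, Shmt1, Shmt2, Gldc, Asns, Slc7a11, Slc7a10 and Slc1a4. All 10 were found in the table and all 10 had counts in every sample, so that none was lost to the filter on low values, which left 22337 genes for testing. The genes were measured by RNA sequencing of tdTomato-positive astrocytes sorted from the brain of male mice that carried Aldh1l1-CreERT2 and tdTomato fl/fl, and the mice of both groups had been given tamoxifen (75 mg/kg on 5 days) to label the cells. At 8 weeks of age, mice of one group were injected once with streptozotocin (STZ, 150 mg/kg), a toxin of pancreatic beta cells that makes mice hyperglycemic, and the control group received citrate vehicle. Brains were taken 21 days later. Each group held 3 samples, each a pool of cells from 3 mice, and STZ mice entered the study when their fasting blood glucose passed 250 mg/dl. The labels give the genotype of all samples as WT. The reporter is switched on wherever the Aldh1l1 promoter drives the recombinase, so the sorted cells are those with that promoter active at the time of tamoxifen. The comparison asks which transcripts of this pathway differ between astrocytes of hyperglycemic and normoglycemic mice.

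Serine is built from the glycolytic intermediate 3-phosphoglycerate in 3 steps, by phosphoglycerate dehydrogenase (Phgdh), phosphoserine aminotransferase (Psat1) and phosphoserine phosphatase (Psph). Serine hydroxymethyltransferase, cytosolic (Shmt1) or mitochondrial (Shmt2), then passes a carbon from serine to folate and leaves glycine, which the mitochondrial glycine cleavage system takes apart, with Gldc as its decarboxylase. In the adult brain astrocytes are the main site of serine synthesis, and they supply neurons with L-serine, the precursor of the NMDA receptor co-agonist D-serine. ATF4 is a transcription factor that is translated when amino acids run short or the endoplasmic reticulum is stressed, and in many cell types it drives the serine synthesis genes, asparagine synthetase (Asns), the cystine carrier Slc7a11 and the neutral amino acid carrier Slc1a4.

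ATF4 binds a composite C/EBP-ATF element, searched here as TGATGNAA on both strands of the RefSeq promoter windows of GRCm38.p6, which reach from 250 bases before to 50 after a gene's start. It was found in 3 of the 10 genes, Asns, Slc7a11 and Slc1a4, against 3.09% of the 15329 tested genes that have a window and 3.97% of all 32851 windows. The 10 genes were chosen in part as genes under ATF4, so their share is a description and no independent result. The stretches from 150 bases before to 25 after the start of these 3 genes are given because they are the places where the members carry the letters of the element, which stand in capitals. Each reads 5′ to 3′ along the gene, and all 3 genes lie on the minus strand.
Asns, chr6:7693185-7693359: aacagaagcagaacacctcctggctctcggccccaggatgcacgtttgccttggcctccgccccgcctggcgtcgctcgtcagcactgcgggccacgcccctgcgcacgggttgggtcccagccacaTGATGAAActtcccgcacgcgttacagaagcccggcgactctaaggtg
Slc7a11, chr3:50443589-50443763: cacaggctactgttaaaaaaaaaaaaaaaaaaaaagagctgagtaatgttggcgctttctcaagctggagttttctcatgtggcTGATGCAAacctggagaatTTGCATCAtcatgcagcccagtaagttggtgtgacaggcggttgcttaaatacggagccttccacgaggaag
Slc1a4, chr11:20332689-20332863: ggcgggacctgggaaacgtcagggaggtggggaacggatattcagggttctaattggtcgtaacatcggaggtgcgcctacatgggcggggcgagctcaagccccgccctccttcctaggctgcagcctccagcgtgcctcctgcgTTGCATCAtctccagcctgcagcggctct

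In Asns the element TGATGAAA began 23 bases before the start, on the strand of the gene. Slc7a11 held TGATGCAA in both orientations, starting 66 and 47 bases before the start, with its start as RefSeq gives it lying inside the longer gene model of GENCODE. In Slc1a4 the element lay on the opposite strand and spanned the start itself. The windows of the other 7 members, Phgdh, Psat1 and Psph among them, did not hold these letters, which says nothing of elements elsewhere in those genes. The core of the antioxidant response element (TGACNNNGC, both strands), the binding sequence of NRF2, which also drives Slc7a11 in many cells, was found in Phgdh, Psph and Asns, against 16.0% of the tested genes with a window. The composite element and this core did not overlap each other in Asns, the one member with both. The matches are letters in a window and were not measured as bound.

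Levels between genes were compared in TPM (each gene's share of all transcripts, corrected for transcript length), the deposited measure that allows it. Slc7a10, the exchanger Asc-1 that moves glycine, L-serine and D-serine, was the most abundant of the 10, at 1785 ± 267 TPM (SD, n = 6 over both groups), and ranked 56th of the 22337 tested genes. Phgdh followed at 723 ± 42.9 TPM, at rank 147. These ranks place a carrier and the first enzyme of serine synthesis among the most abundant transcripts of the sorted cells. Psat1 (300.2 ± 28.2 TPM) and Slc1a4 (249 ± 13.2 TPM) came next, with ranges over the 6 samples that overlapped. Psph (122.5 ± 14.4 TPM) and Gldc (110.3 ± 12.2 TPM) also overlapped, and Psph stood above Gldc in 3 of 6 samples. Shmt2 was at 50.2 ± 1.59 TPM and Slc7a11 at 38.0 ± 4.36 TPM, without overlap of either with its neighbours. Asns (5.0 ± 0.903 TPM) and Shmt1 (3.99 ± 0.557 TPM) were the lowest, and their ranges overlapped. The order from the first to the last member was otherwise the same in all 6 samples. Shmt2 was 10.6 to 15.3 times as abundant as Shmt1 in every sample, so the mitochondrial form of the hydroxymethyltransferase dominated in these cells at the transcript level.

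**Figure D1:**
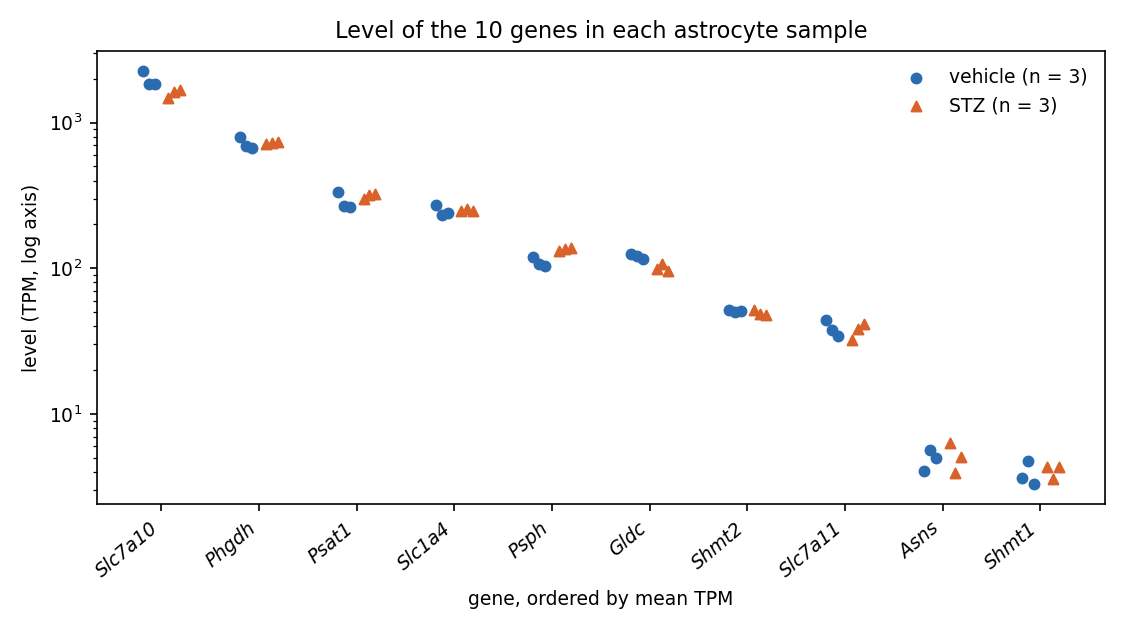
TPM (log axis) of the 10 genes in each of 3 vehicle (blue circles) and 3 STZ (orange triangles) samples, ordered by their mean. The genes run from Slc7a10 at 1785 TPM to Shmt1 at 3.99 TPM, and the 6 points of a gene lie close together beside the distance between most genes.

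Among the 10 genes the largest differences in STZ astrocytes were those of Slc7a10 and Gldc, lower in value, and Psph, higher, while the means of Phgdh and Slc1a4 were nearly equal in both groups. Gldc was 17.7% lower (fold 0.823, 95% interval 0.736 to 0.920) and Slc7a10 20.2% lower (fold 0.798, 0.670 to 0.951), with 3 samples in each group. Psph, the last enzyme of serine synthesis, was 1.16-fold higher (1.04 to 1.30). None of the 10 passed the threshold (edgeR quasi-likelihood test, a fold change over 1.5 with a Benjamini-Hochberg adjusted p under 0.05), which 0.0224% of all tested genes did, and the smallest adjusted p of a member was 0.282 (Gldc). DESeq2, which called 1.05% of all genes, called none of them either. At an unadjusted p under 0.05, the edgeR test put 2 of the 10 lower (5.65% of all genes) and 1 higher (5.63% of all genes). The groups did not overlap for 3 members that were lower (9.85% of all genes) and 1 that was higher (8.64% of all genes). The median log2 fold change of the members was 0.00085, against 0.012 for all tested genes, with 5 members above 0 and 5 below. For 9 of the 10 genes the 95% interval of the fold change lay within 1.5-fold in either direction, as it did for 44.4% of all genes, and the exception was Asns.

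**Figure D2:**
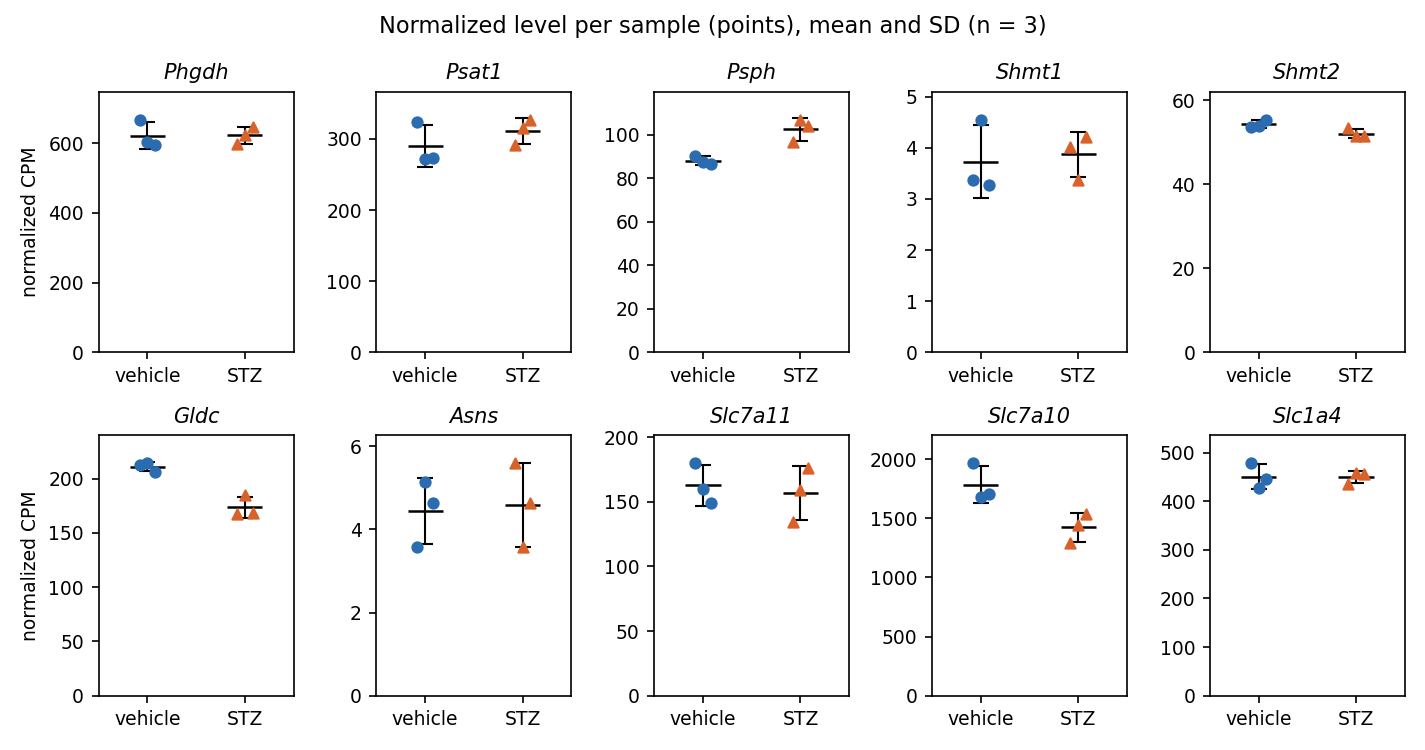
Normalized CPM (linear axes from 0) of each gene in 3 vehicle (blue circles) and 3 STZ (orange triangles) samples, with bars for the mean and SD. Psph lies higher in all STZ samples, Gldc, Slc7a10 and, by a small margin, Shmt2 lie lower, and the groups of the other 6 genes overlap.

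Values within a gene are given as CPM, counts scaled to the library total after TMM normalization, in the order of the replicate numbers. Phgdh, which commits 3-phosphoglycerate to serine (gene 236539, chr3:98313171-98339969), was at 667, 603 and 596 CPM in vehicle and 598, 624 and 647 CPM in STZ astrocytes. The groups overlapped over their whole width, and vehicle replicate 1 was the highest of the 6. The log2 fold change was 0.0021 (SE 0.081; adjusted p = 0.994 by edgeR), and its interval of 0.878 to 1.14-fold bounds the change that these samples leave possible. Leaving out 1 sample at a time moved the log2 fold change between −0.042 and 0.052, so its sign was not fixed. Psat1, the aminotransferase that takes its amino group from glutamate (gene 107272, chr19:15905123-15925059), was at 324, 272 and 273 CPM in vehicle and 292, 316 and 327 CPM in STZ. Again the groups overlapped through vehicle replicate 1, and the log2 fold change was 0.11 (SE 0.094; adjusted p = 0.700 by edgeR).

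Psph, which removes the phosphate in the final step (gene 100678, chr5:129765558-129787443), was at 90.3, 87.5 and 86.4 CPM in vehicle and 96.4, 106.8 and 104.1 CPM in STZ. All STZ samples lay above all vehicle samples. The log2 fold change was 0.22 (SE 0.067), with an adjusted p of 0.334 by edgeR and 0.335 by DESeq2. In the gene positions given here, Psph shares 88 bases at its 5′ end with Cct6a, a chaperonin subunit gene on the opposite strand. The start of Psph used for its RefSeq promoter window lies inside this longer gene model and outside Cct6a. The count of Cct6a was 180% of that of Psph, and no source used here states that reads were counted by strand. Cct6a itself differed by −0.018 on the log2 scale (adjusted p = 0.959 by edgeR), and with the 2 genes added together the log2 ratio of the group means was 0.066. Such a sum mixes the values of both genes whether or not any read is shared, so it cannot show which gene a read came from. Here it leans to Cct6a, which has the larger count. How many reads the shared bases gave was not tested.

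The 3 enzymes were also set against each other within a sample. The ratio of Phgdh to Psph in TPM was 6.69, 6.44 and 6.46 in vehicle and 5.39, 5.38 and 5.39 in STZ astrocytes, a ratio that needs no scaling between samples. In TPM the STZ values were nearly equal to each other and lay apart from all vehicle values. On counts, which need no scaling either, the ratios also lay apart, but the STZ values were less alike. Phgdh had 36238, 36304 and 38032 counts in STZ, and Psph had 5848, 6218 and 6117. In TPM, Phgdh to Psat1 was 2.40 to 2.58 in vehicle and 2.30 to 2.38 in STZ. Psat1 to Psph was 2.49 to 2.79 in vehicle and 2.26 to 2.34 in STZ, but on counts the groups of this ratio overlapped. Groups that do not overlap were common among such ratios: they were found for 18 of the 45 pairs of the 10 genes and for 16.1% of all pairs of tested genes, pairs that share genes and are not independent. With 3 samples against 3, an exact two-sided permutation test cannot give a p under 0.1, and the ratios are given as a description.

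**Figure D3:**
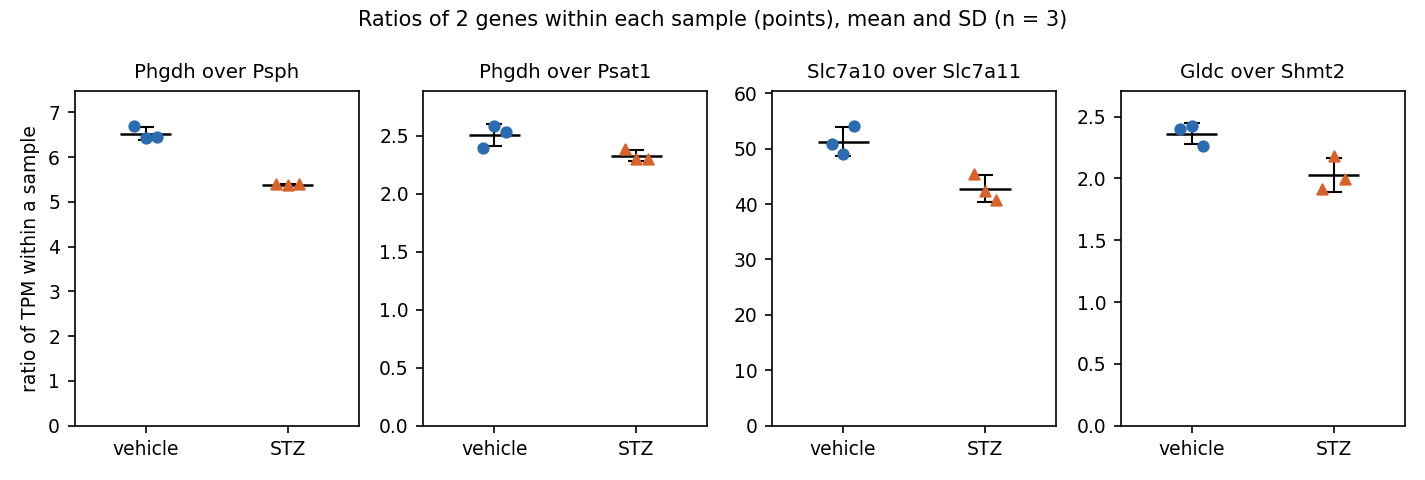
Ratio of the TPM of 2 genes within each sample (linear axes from 0), for 3 vehicle (blue circles) and 3 STZ (orange triangles) samples, with bars for the mean and SD. In all 4 ratios drawn every STZ sample lies below every vehicle sample, with Phgdh over Psph at 6.44 to 6.69 in vehicle and 5.38 to 5.39 in STZ. Among ratios not drawn, Psat1 over Psph is lower in STZ and Slc1a4 over Slc7a10 higher. Shmt2 over Shmt1, Slc1a4 over Slc7a11 and Asns over Psat1 overlap.

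Among the enzymes that turn serine into glycine and break glycine down, Gldc differed most. Gldc (gene 104174, chr19:30098441-30175441) was at 212, 214 and 206 CPM in vehicle and 168, 185 and 169 CPM in STZ, and the lowest vehicle sample was above the highest STZ sample. The log2 fold change was −0.28 (SE 0.069), with an adjusted p of 0.282 by edgeR and 0.0981 by DESeq2. It stayed between −0.33 and −0.26 with any 1 sample left out. Shmt2 (gene 108037, chr10:127517123-127522444) was at 53.8, 53.8 and 55.4 CPM in vehicle and 53.3, 51.5 and 51.5 CPM in STZ. The groups did not overlap, though by a narrow gap, and the log2 fold change was −0.060 (SE 0.062; adjusted p = 0.745 by edgeR). Shmt2 shares 32 bases with Ndufa4l2 on the opposite strand, a gene with 3.92% of its counts and a log2 fold change of 1.27 (adjusted p = 0.302 by edgeR), and with both added the log2 ratio of the means was −0.014. The ratio of Gldc to Shmt2 was 2.40, 2.42 and 2.27 in vehicle and 1.91, 2.18 and 1.99 in STZ. Shmt1 (gene 20425, chr11:60788897-60811265) was at 3.38, 4.55 and 3.26 CPM in vehicle and 4.02, 3.37 and 4.22 CPM in STZ, overlapping, with a log2 fold change of 0.054 (SE 0.214; adjusted p = 0.948 by edgeR).

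The partners of Gldc in the glycine cleavage system did not share its separation in full. Amt, the aminomethyltransferase, was at 7.63, 7.57 and 7.66 CPM in vehicle and 5.71, 7.39 and 7.40 CPM in STZ, without overlap (log2 fold change −0.16, adjusted p = 0.741 by edgeR), and without STZ replicate 1 it was at −0.043. Gcsh, the lipoyl carrier protein, was at a log2 fold change of 0.041 (adjusted p = 0.867 by edgeR), with overlapping groups. None of the 3 partners tested passed the threshold, and their median was −0.056.

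Slc7a10 (gene 53896, chr7:35186095-35201116, plus strand) was at 1964, 1678 and 1709 CPM in vehicle and 1294, 1440 and 1534 CPM in STZ. The lowest vehicle sample exceeded the highest STZ sample, and the spread within each group was wide beside the gap between them. The log2 fold change was −0.33 (SE 0.108), with an adjusted p of 0.356 by edgeR and 0.139 by DESeq2, and it lay between −0.38 and −0.25 with any 1 sample left out. Its 3′ end shares 239 bases with Lrp3 on the opposite strand, whose count was 2.48% of that of Slc7a10, and with both added the log2 ratio was −0.32. Slc7a11, the cystine and glutamate exchanger that feeds glutathione synthesis (gene 26570, chr3:50364936-50499087), was at 179.7, 160.0 and 148.7 CPM in vehicle and 134.4, 159.0 and 175.9 CPM in STZ. The groups overlapped nearly completely, and the log2 fold change was −0.057 (SE 0.116; adjusted p = 0.881 by edgeR). Slc1a4, the exchanger ASCT1 that carries L-serine, alanine and threonine (gene 55963, chr11:20302180-20332713), was at 477.7, 426.8 and 445.0 CPM in vehicle and 434.5, 458.2 and 456.5 CPM in STZ. Its log2 fold change was −0.00035 (SE 0.076; adjusted p = 0.999 by edgeR), with a 95% interval of 0.885 to 1.13-fold.

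Within a sample, the 2 ratios that include Slc7a10 separated the groups. Slc7a10 was 50.8, 49.0 and 54.0 times as abundant as Slc7a11 in vehicle and 45.4, 42.3 and 40.6 times in STZ astrocytes, in TPM. Slc1a4 over Slc7a10 was 0.121, 0.127 and 0.130 in vehicle and 0.167, 0.158 and 0.148 in STZ. Slc1a4 over Slc7a11, the ratio without Slc7a10, was 6.14, 6.19 and 6.99 in vehicle and 7.57, 6.70 and 6.01 in STZ, with overlapping groups.

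Asns, which makes asparagine from aspartate and glutamine and is a textbook target of ATF4 (gene 27053, chr6:7675165-7693209), was at 3.58, 5.15 and 4.63 CPM in vehicle and 5.59, 3.57 and 4.63 CPM in STZ. The groups overlapped through most of the range. The log2 fold change was 0.047 (SE 0.236; adjusted p = 0.960 by edgeR), and the 95% interval of 0.706 to 1.51-fold was the widest of the 10. The 3 members with the composite element, Asns, Slc7a11 and Slc1a4, all had overlapping groups and lay between −0.057 and 0.047 on the log2 scale. Of the 7 without it, 4 separated and 3 (Phgdh, Psat1 and Shmt1) overlapped, and with so few genes the element and the difference between the groups were not tested against each other.

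**Figure D4:**
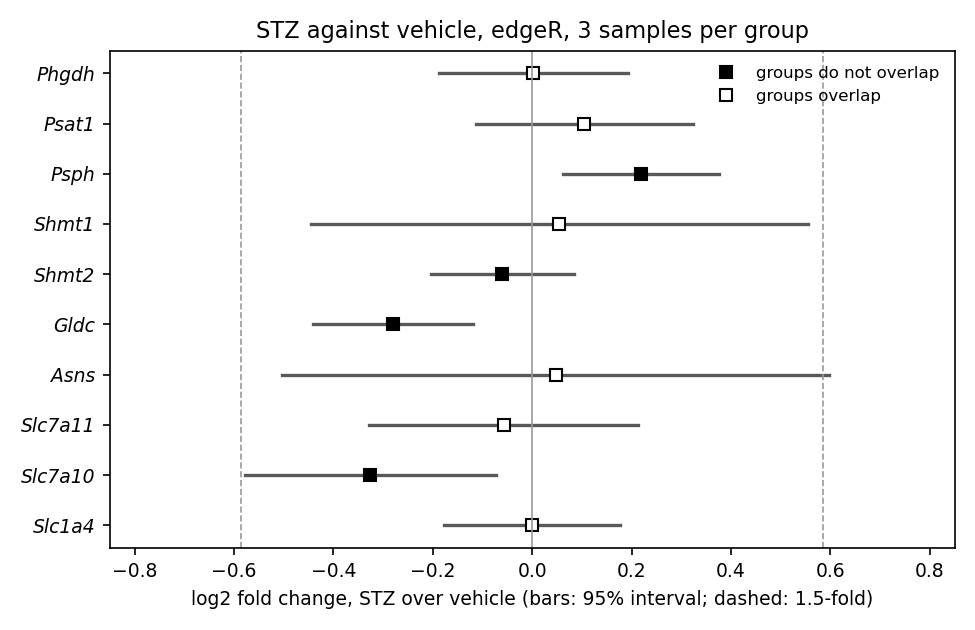
Log2 fold change of STZ over vehicle (squares) with its 95% interval (bars) for the 10 genes, edgeR, 3 samples per group; filled squares mark genes whose groups do not overlap and dashed lines 1.5-fold. The intervals of Psph, Gldc and Slc7a10 leave out 0, and that of Asns alone reaches past a dashed line.

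The sorted cells held the markers of astrocytes, with summed TPM of 8 marker genes from 10750 to 12650 in vehicle and from 11370 to 12450 in STZ samples. Of the 8 markers, 4 were higher in STZ, and they did not move together. Aqp4, Aldh1l1 and Slc1a2 were lower and Gjb6 was higher, each without overlap of the groups. Aqp4 was at a log2 fold change of −0.48, below the 1.5-fold limit, with an adjusted p of 0.0169 by DESeq2 and 0.280 by edgeR. Choroid plexus markers were also high and uneven, at 10390 to 29380 TPM in vehicle and 15710 to 26500 TPM in STZ (5 genes, led by Ttr), with the lowest sum in vehicle replicate 1, the sample in which 4 of the 10 genes had their highest CPM. Of the vascular lists, 8 of 8 endothelial markers were higher in STZ (summed 45.0 to 138.1 TPM in vehicle, 123.8 to 251.1 TPM in STZ) and so were 5 of 6 markers of pericytes and smooth muscle (53.4 to 64.7 and 84.4 to 110.1 TPM). No marker of these lists was at 0 in all samples. By edgeR none of them passed the threshold, with a smallest adjusted p of 0.306 (endothelial) and 0.0723 (pericytes and smooth muscle). DESeq2 called 0 of 8 endothelial markers and 4 of 6 markers of pericytes and smooth muscle, all higher in STZ (Tagln, adjusted p = 7.3e-17; Acta2, 1.6e-11; Myh11, 7.2e-07; Rgs5, 0.0283). Summed oligodendrocyte markers ran from 783 to 2037 TPM in vehicle and 1021 to 2864 TPM in STZ, microglial markers from 310 to 479 and 292 to 425 TPM, and neuronal markers from 18.5 to 25.1 and 16.9 to 32.7 TPM. Ependymal markers ran from 157.6 to 406.6 TPM in vehicle and 314.0 to 542.1 TPM in STZ, with 4 of 4 higher in STZ (smallest adjusted p 0.496 by edgeR). Of the choroid plexus markers 0 of 5 were higher in STZ, and of the microglial markers 0 of 6. The part of these other cells in the differences of Gldc, Slc7a10 and Psph was not tested. As a percentage of the summed astrocyte markers of the same sample, Slc7a10 was 17.8, 17.2 and 16.8 in vehicle and 12.2, 12.9 and 14.8 in STZ. Gldc was 0.989, 1.13 and 1.05 in vehicle and 0.812, 0.855 and 0.840 in STZ, and Psph was 0.941, 1.003 and 0.946 in vehicle and 1.09, 1.09 and 1.21 in STZ. On this scale the groups of these 3 genes stayed apart, also with Aldoc, the most abundant marker, left out, while those of Shmt2 overlapped. The separation, and for Slc7a10 its direction, depended on the markers chosen. Aldh1l1 alone was at 369, 320 and 318 TPM in vehicle and 308, 298 and 262 TPM in STZ. Set against it, the groups of Slc7a10 and of Gldc overlapped, while those of Psph stayed apart. Aqp4 alone was at 561, 442 and 469 TPM in vehicle and 321, 380 and 361 TPM in STZ. Slc7a10 was at 2245, 1848 and 1849 TPM in vehicle and 1472, 1611 and 1684 TPM in STZ. Set against Aqp4, Slc7a10 was thus higher in every STZ sample than in every vehicle sample, by a narrow gap. Against Aqp4 the groups of Gldc overlapped, and Psph stayed higher in STZ. In bulk samples, fewer cells that hold a transcript and less of it per cell cannot be told apart.

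Beyond the 10 genes, 11 lists of the surrounding pathway held 102 genes, of which 98 were tested. By edgeR, none passed the threshold, 8 were higher (5.63% of all genes) and 6 lower (5.65% of all genes) at an unadjusted p under 0.05, counts near those shares, and the median log2 fold change was 0.0092. DESeq2, which called 1.05% of all genes, called 3 of the 98, all higher: Slc38a2, Sds and Slc7a1. Slc38a2, the sodium-coupled carrier SNAT2 that is induced when amino acids are scarce, was at 65.4, 67.7 and 78.5 CPM in vehicle and 97.7, 102.5 and 149.4 CPM in STZ. It was higher in all STZ samples (log2 fold change 0.72, SE 0.167), with an adjusted p of 0.0051 by DESeq2 and 0.258 by edgeR. Sds, serine dehydratase, which turns serine into pyruvate, was at 4.08, 3.93 and 4.03 CPM in vehicle and 9.63, 8.26 and 4.94 CPM in STZ (log2 fold change 0.92, SE 0.255; adjusted p of 0.0233 by DESeq2 and 0.302 by edgeR). Slc7a1, the carrier of cationic amino acids, was at 3.69, 4.76 and 5.52 CPM in vehicle and 7.72, 7.51 and 6.91 CPM in STZ (log2 fold change 0.66, SE 0.192; adjusted p of 0.0457 by DESeq2 and 0.311 by edgeR). These 3 are amino acid uptake and serine breakdown genes, and all were higher together with the endothelial and pericyte markers above, whose part in them was not tested.

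Among the 11 tested carriers and D-serine enzymes, values ran both ways, with a median of 0.053. At an unadjusted p under 0.05 by edgeR, 3 genes were higher (5.63% of all genes) and 2 lower (5.65% of all genes). Without overlap of the groups, 2 were higher (8.64% of all genes) and 3 lower (9.85% of all genes). Slc6a9, the glycine transporter GLYT1 that clears glycine from the synapse, was at 513.5, 365.8 and 394.0 CPM in vehicle and 349.3, 297.3 and 287.1 CPM in STZ. The groups did not overlap, the log2 fold change was −0.45 (SE 0.142; adjusted p = 0.345 by edgeR), and it was −0.29 without vehicle replicate 1. As a percentage of summed astrocyte markers, Slc6a9 was 2.33 to 2.85 in vehicle and 1.67 to 2.05 in STZ, but against Aldh1l1 alone its groups overlapped. Srr, serine racemase, which makes D-serine, was at 49.7, 49.6 and 51.7 CPM in vehicle and 42.2, 43.6 and 48.4 CPM in STZ, also without overlap (log2 fold change −0.17, adjusted p = 0.465 by edgeR). Slc38a5, the carrier SNAT5 of glutamine, glycine and serine, stood on the other side, at 2.69, 2.45 and 5.46 CPM in vehicle and 8.29, 5.43 and 5.29 CPM in STZ, with overlapping groups (log2 fold change 0.84, SE 0.352; adjusted p = 0.434 by edgeR). Like the summed endothelial markers, Slc38a5 was lowest in vehicle replicates 1 and 2 and highest in STZ replicate 1. The part of endothelial cells in its difference was not tested. Slc6a5, the glycine transporter of glycinergic neurons, had no count in 2 vehicle samples and was not tested.

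The branches that draw on serine and glycine showed no common direction. Of 14 folate one-carbon enzymes, 1 was lower at an unadjusted p under 0.05 by edgeR (5.65% of all genes) and 0 were higher (5.63% of all genes). The lower gene was Aldh1l1, the cytosolic formyltetrahydrofolate dehydrogenase whose promoter also drives the recombinase used to label the cells. It was at 516.0, 465.1 and 472.5 CPM in vehicle and 433.7, 427.0 and 383.6 CPM in STZ, without overlap (log2 fold change −0.22, adjusted p = 0.398 by edgeR). Mthfd2, the mitochondrial dehydrogenase that follows Shmt2, was at a log2 fold change of 0.22 with overlapping groups (adjusted p = 0.634 by edgeR). Cbs, which condenses serine with homocysteine on the way to cysteine, was at 325.6, 314.3 and 306.7 CPM in vehicle and 393.6, 389.3 and 384.0 CPM in STZ. That is a separation of wide margin beside the spread within each group, at a log2 fold change of 0.30 (SE 0.066), below the 1.5-fold limit, with an adjusted p of 0.0424 by DESeq2 and 0.247 by edgeR. Sptssa, a small subunit of the serine palmitoyltransferase that joins serine to palmitate, was at 70.3, 72.7 and 73.3 CPM in vehicle and 78.2, 81.4 and 81.6 CPM in STZ (log2 fold change 0.16, adjusted p = 0.409 by edgeR). In proline and aspartate synthesis, 0 of 6 genes reached an unadjusted p of 0.05 by edgeR (of all genes, 5.65% were lower and 5.63% higher). There Got2, the mitochondrial aspartate aminotransferase, was at a log2 fold change of −0.13.

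**Figure D5:**
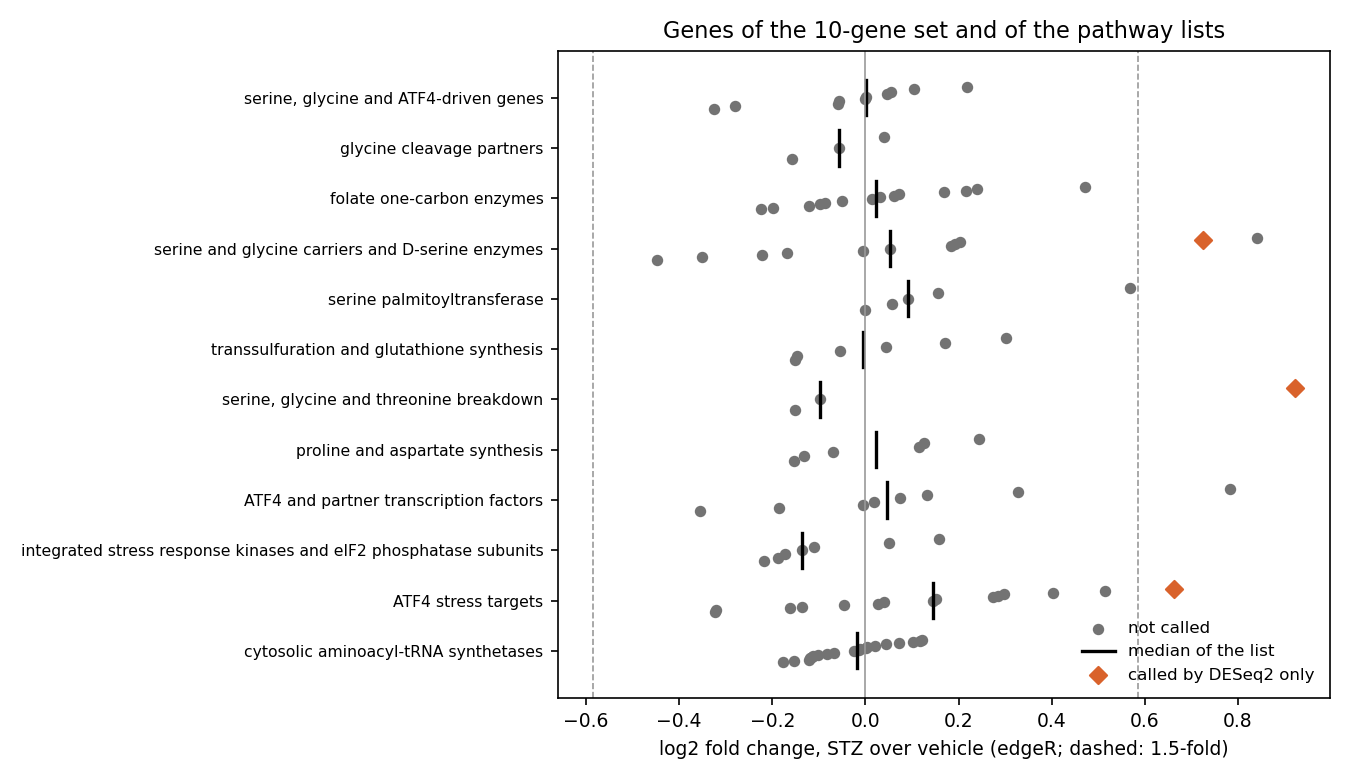
Log2 fold change of STZ over vehicle (edgeR, 3 samples per group) for the tested genes of the 10-gene set and of the 11 pathway lists, with the median of each as a black bar and dashed lines at 1.5-fold. Orange diamonds are the 3 genes called by DESeq2, Slc38a2, Sds and Slc7a1, and the medians lie between −0.14 and 0.14.

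The ATF4 arm of the stress response was likewise without a called transcription factor. Atf4 mRNA was at 91.3, 93.9 and 88.1 CPM in vehicle and 79.0, 90.8 and 117.8 CPM in STZ, with overlapping groups (log2 fold change 0.074, adjusted p = 0.869 by edgeR), and it was −0.10 without STZ replicate 3. ATF4 is set mostly by translation, which these counts do not measure. Ddit3, the stress factor CHOP, was at 35.5, 32.6 and 30.2 CPM in vehicle and 22.4, 24.7 and 29.8 CPM in STZ, without overlap (log2 fold change −0.36, adjusted p = 0.367 by edgeR). Trib3 and Chac1, targets of ATF4 and CHOP, were low, at 1.29 and 1.03 TPM, and their log2 fold changes of 0.15 and 0.30 had adjusted p of 0.889 and 0.827 by edgeR. Of 15 tested ATF4 stress targets, 10 were above 0 and 5 below, with a median of 0.14. Of all 22337 tested genes, 11600 were above 0 and 10737 below. At an unadjusted p under 0.05 by edgeR, 2 stress targets were higher (5.63% of all genes), Slc7a1 and Eif4ebp1, and 0 were lower (5.65% of all genes). Of 20 cytosolic aminoacyl-tRNA synthetases, another group under ATF4, 1 was lower at that level (5.65% of all genes) and 0 were higher (5.63% of all genes), with a median of −0.019. The lower one was Wars (log2 fold change −0.18, adjusted p = 0.394 by edgeR). The kinases of eIF2 and the subunits of its phosphatase, 7 genes, had a median of −0.14. At an unadjusted p under 0.05 by edgeR, 1 of them was lower (5.65% of all genes), Ppp1r15b (log2 fold change −0.22, adjusted p = 0.403 by edgeR). The heavy chain Slc3a2, which partners Slc7a11 and Slc7a10, and the large neutral carrier Slc7a5 were at −0.15 and 0.27, with adjusted p of 0.584 and 0.659 by edgeR. Of the genes with a window, 6 of 13 ATF4 stress targets held the composite element (Trib3, Chac1, Nupr1, Vldlr, Fgf21 and Pck2). So did 5 of 13 synthetases (Aars, Gars, Iars, Tars and Yars). It was found in 2 of 4 genes of proline and aspartate synthesis (Pycr1 and Got1) and 2 of 8 ATF4 partner factors (Atf3 and Jdp2). Among folate enzymes it was in 0 of 10, and among carriers and D-serine enzymes in 0 of 9. The share was 3.09% of tested genes, as given above, and 4.51% of all 27025 genes with a window, since Fgf21 was not tested. The stress targets and synthetases were listed as genes under ATF4, so their shares are a description and no independent result.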

How the data were processed

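RNA sequencing of sorted astrocytes gave 6 samples in 2 groups, taken from the treatment labels. According to the submitters' notes, reads were trimmed with Trimmomatic 0.38, aligned to mm10 with HISAT2 2.1.0 and quantified with StringTie 2.1.3b; the annotation is not given in the sources used here. The counts deposited by the authors are whole numbers per gene without normalization, totalling 52529048 to 58749115 per sample, so that 3 counts were 0.0511 to 0.0571 CPM (counting error only). The deposited TPM values, made by the authors per transcript length, were used for levels between genes, and the FPKM values deposited by the authors were not used further. Each sample is a pool of mice, and p-values measure the spread between pools.

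The edgeR package (4.0.16, R 4.3.3) was run on the counts with TMM scaling, a two-sided quasi-likelihood test on group alone and Benjamini-Hochberg adjustment, over the 22337 genes with a count in every sample, and a gene was called at an adjusted p under 0.05 with a fold change over 1.5. The steps were tested on simulated data. DESeq2 1.42.0, the authors' tool, limma 3.58.1 on log2(TPM + 1) and log2(TPM + 0.1), other filters and leaving out samples were alternatives. Gene numbers were matched to RefSeq (45679 of 45777) and positions taken from GENCODE on GRCm38. The members and lists were chosen with earlier results of these data known. Named genes were the members, any list gene called by edgeR or DESeq2, otherwise the gene of each list with the smallest p and that with the highest TPM, and 10 pathway partners. Eif4ebp1, Slc38a5, the astrocyte and vascular markers named singly and the genes listed for a promoter element were named after their values were seen. A gene of the lists that this rule names is not reported here.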

Additional observations from a re-analysis of the deposited data

How the results depend on the processing

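None of the 10 genes was called under any of the 14 alternatives run, and 2 to 4 of them had an unadjusted p under 0.05, with Gldc, Slc7a10 and Psph keeping their directions in all 14. The number of genes called in the whole table was less stable: 5 by edgeR, 234 by DESeq2, 10 with robust fitting, 0 by limma with either pseudocount, and 0 or 1 with a sample left out (1 without vehicle replicate 3). Of the pathway lists DESeq2 called 3 genes (Slc38a2, log2 fold change 0.72; Sds, 0.92; Slc7a1, 0.66) and every other alternative 0. Signs near 0 turned: Phgdh was −0.0030 with DESeq2 and with its size factors, −0.0057 without a filter and −0.00079 with filterByExpr, and Slc1a4 was 0.013 by limma with either pseudocount. Leaving out a sample moved Phgdh from −0.042 to 0.052, Slc1a4 from −0.050 to 0.042, Shmt1 from −0.045 to 0.21, Asns from −0.12 to 0.20 and Slc7a11 from −0.15 to 0.041. It moved Atf4 from −0.10 to 0.20, Chac1 from −0.15 to 0.61, Dars from −0.052 to 0.013, Gcsh from −0.014 to 0.094, Got2 from −0.33 to 0.038, Slc7a5 from −0.0067 to 0.48 and Trib3 from −0.085 to 0.43. The cause of these changes was not tested.

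Same-numbered samples did not deviate together (r = −0.10, −0.16 and −0.18 over genes), so these values gave no sign of pairing by number. With 3 samples per group set against their own mean, they cannot show whether same-numbered samples shared a preparation. With the replicate number as a block, 0 genes were called in the table, 1793 had an unadjusted p under 0.05, and Slc1a4 was at 0.00081.

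With 3 pools per group the 95% intervals were widest for the low genes Asns (0.706 to 1.51-fold) and Shmt1 (0.734 to 1.47-fold), and the library kit is described differently in the labels and the methods.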

Other observations

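Of the 102 genes on the pathway lists, 4 had no count in at least 1 sample and were left out of the tests: Slc6a5, Tdh, Agxt and Fgf21. Agxt and Fgf21 were listed at 0 in all 6 samples.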
